A study of Mus musculus with 10 samples.

Results

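The genes described here carry the steps by which a hepatocyte makes, breaks down or stores glucose: Pck1, G6pc1, Fbp1 and Ppargc1a of gluconeogenesis, Pklr of glycolysis, and Gys2, Ppp1r3b, Ppp1r3c and Ppp1r3g of glycogen synthesis. They are 9 of the 21939 genes in the table, were chosen by name, and were all found by their Ensembl identifiers. All 9 were among the 13641 genes that were tested. RNA was sequenced from hepatocytes freshly isolated from 10 male mice, 8 to 9 weeks old. All mice, controls included, had received AAV8Cre 12 days earlier. This adeno-associated virus carries Cre recombinase under the thyroxine-binding globulin promoter, which limits Cre to hepatocytes. The 3 control mice were C57BL6/j animals without floxed alleles. The Nrf2 KO group (2 mice) was homozygous for floxed Nrf2, the p65 KO group (2 mice) for floxed p65, and the Nrf2:p65 double knockout group (DKO, 3 mice) for both. Nrf2 is a transcription factor of the antioxidant response, and p65 is the RelA subunit of NF-κB. The libraries held between 33707165 and 49897382 estimated counts.

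Gluconeogenesis turns lactate, glycerol and amino acids into glucose, and glycolysis runs the other way. The steps that differ between both routes are catalysed by separate enzymes, whose mRNAs in the liver follow fasting, feeding, insulin, glucagon, glucocorticoids and the time of day. Glycogen is built by glycogen synthase, which is switched on when protein phosphatase 1 removes its phosphates. The Ppp1r3 proteins are the subunits that hold this phosphatase on glycogen.

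The counts of the targeted genes did not show the losses that the labels name. Nfe2l2, the gene for Nrf2, had 2318, 1991 and 1990 normalized counts in the controls and 1993 and 1997 in p65 KO. It had 4739 and 5005 in Nrf2 KO and 4111, 3434 and 5240 in DKO, which was higher and not lower. Rela, the gene for p65, lay between 1034 and 1488 in all 10 libraries. A gene's count adds reads from every exon, and which exons were floxed is not given in the sources used here, so these values do not check the deletions. The study itself reports efficient deletion of both genes in freshly isolated hepatocytes, by RT-qPCR and Western blot. It also reports strongly reduced expression of known target genes of both factors by RT-qPCR. Whether the sequenced mice were among those tested by RT-qPCR and Western blot is not stated. From its RNA sequencing, the study reports that classical Nrf2 targets of detoxification and lipid metabolism were lower in Nrf2 KO and DKO. Below, Nrf2 KO, p65 KO and DKO stand for the libraries labelled so. The 7 hepatocyte markers summed to at least 3371288 normalized counts in every library, and markers of other liver cells are given beside the results they move with.

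The upstream sequences of 4 of the genes are shown because these genes had the results that turn on a single gene. They are RefSeq sequences of the 250 bases before the transcription start on GRCm38.p6, an earlier build than that of the counts, and 7 of the 9 genes had an entry. Gys2 and Ppp1r3b had none. For Pklr, the second of its 2 listed starts is shown, since it held a match and the first did not. Capitals mark every match to the motifs searched.
G6pc1, chr11:101367466-101367715, plus strand: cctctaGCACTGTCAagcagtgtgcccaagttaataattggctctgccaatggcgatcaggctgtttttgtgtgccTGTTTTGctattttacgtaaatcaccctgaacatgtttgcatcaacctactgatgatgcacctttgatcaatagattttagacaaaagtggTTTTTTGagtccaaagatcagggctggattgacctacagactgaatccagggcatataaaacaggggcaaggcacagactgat
Pklr, chr3:89136373-89136622, plus strand: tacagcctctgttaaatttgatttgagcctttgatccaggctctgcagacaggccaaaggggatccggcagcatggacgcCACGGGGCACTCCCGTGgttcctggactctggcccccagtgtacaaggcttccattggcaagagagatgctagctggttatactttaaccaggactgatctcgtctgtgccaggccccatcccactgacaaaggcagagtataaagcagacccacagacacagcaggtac
Ppp1r3c, chr19:36736605-36736854, minus strand: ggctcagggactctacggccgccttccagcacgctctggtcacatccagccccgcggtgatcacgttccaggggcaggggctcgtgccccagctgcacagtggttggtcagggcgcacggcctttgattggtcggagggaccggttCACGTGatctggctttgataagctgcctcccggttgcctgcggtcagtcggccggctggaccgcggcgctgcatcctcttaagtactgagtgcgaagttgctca
Ppp1r3g, chr13:35967656-35967905, plus strand: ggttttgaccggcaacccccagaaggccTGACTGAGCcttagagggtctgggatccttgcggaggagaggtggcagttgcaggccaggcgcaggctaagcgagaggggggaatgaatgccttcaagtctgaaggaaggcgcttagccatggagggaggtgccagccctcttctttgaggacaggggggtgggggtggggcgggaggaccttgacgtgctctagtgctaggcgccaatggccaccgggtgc
The motifs were searched on both strands. They were the core of the antioxidant response element bound by Nrf2 (TGACNNNGC), the consensus of the κB site bound by NF-κB, the cAMP response element (TNACGTCA), the consensus of the carbohydrate response element, the insulin response sequence (TNTTTTG) and the E-box (CACGTG). Upstream of G6pc1 were 1 antioxidant response core and 2 insulin response sequences. Upstream of Pklr was a carbohydrate response element at positions -170 to -154, counted back from the start. A match to the κB consensus lay inside it, at -167 to -158. Upstream of Ppp1r3c was 1 E-box, and upstream of Ppp1r3g was 1 antioxidant response core. Of the searched genes not shown, Fbp1 had 1 antioxidant response core (-56 to -48) and Pck1 had 1 cAMP response element (-93 to -86). Ppargc1a had no match. The same window held the antioxidant response core in 10.2% of all 32536 distinct promoters in the table. The κB consensus was found in 7.28% of them, the cAMP response element in 2.53%, the carbohydrate response element in 0.0984%, the insulin response sequence in 16.9% and the E-box in 6.04%. A match is a run of letters and not evidence of binding.

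Levels differed widely between the genes. Per kilobase of merged exons, control hepatocytes held 23152 ± 10872 normalized counts of Pck1 (SD, n = 3), 12333 ± 2568 of Fbp1 and 9593 ± 5748 of G6pc1. Pklr followed with 2347 ± 685 and Gys2 with 1865 ± 320. Of the glycogen-targeting subunits, Ppp1r3b stood at 860 ± 166, Ppp1r3c at 789 ± 70.4 and Ppp1r3g at 197 ± 89.6. The lowest was Ppargc1a, at 37.9 ± 10.1. The ranges of the control libraries overlapped between Pck1 and Fbp1, between Fbp1 and G6pc1, between Pklr and Gys2, and between Ppp1r3b and Ppp1r3c. The other neighbours in this order did not overlap.

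**Figure D1:**
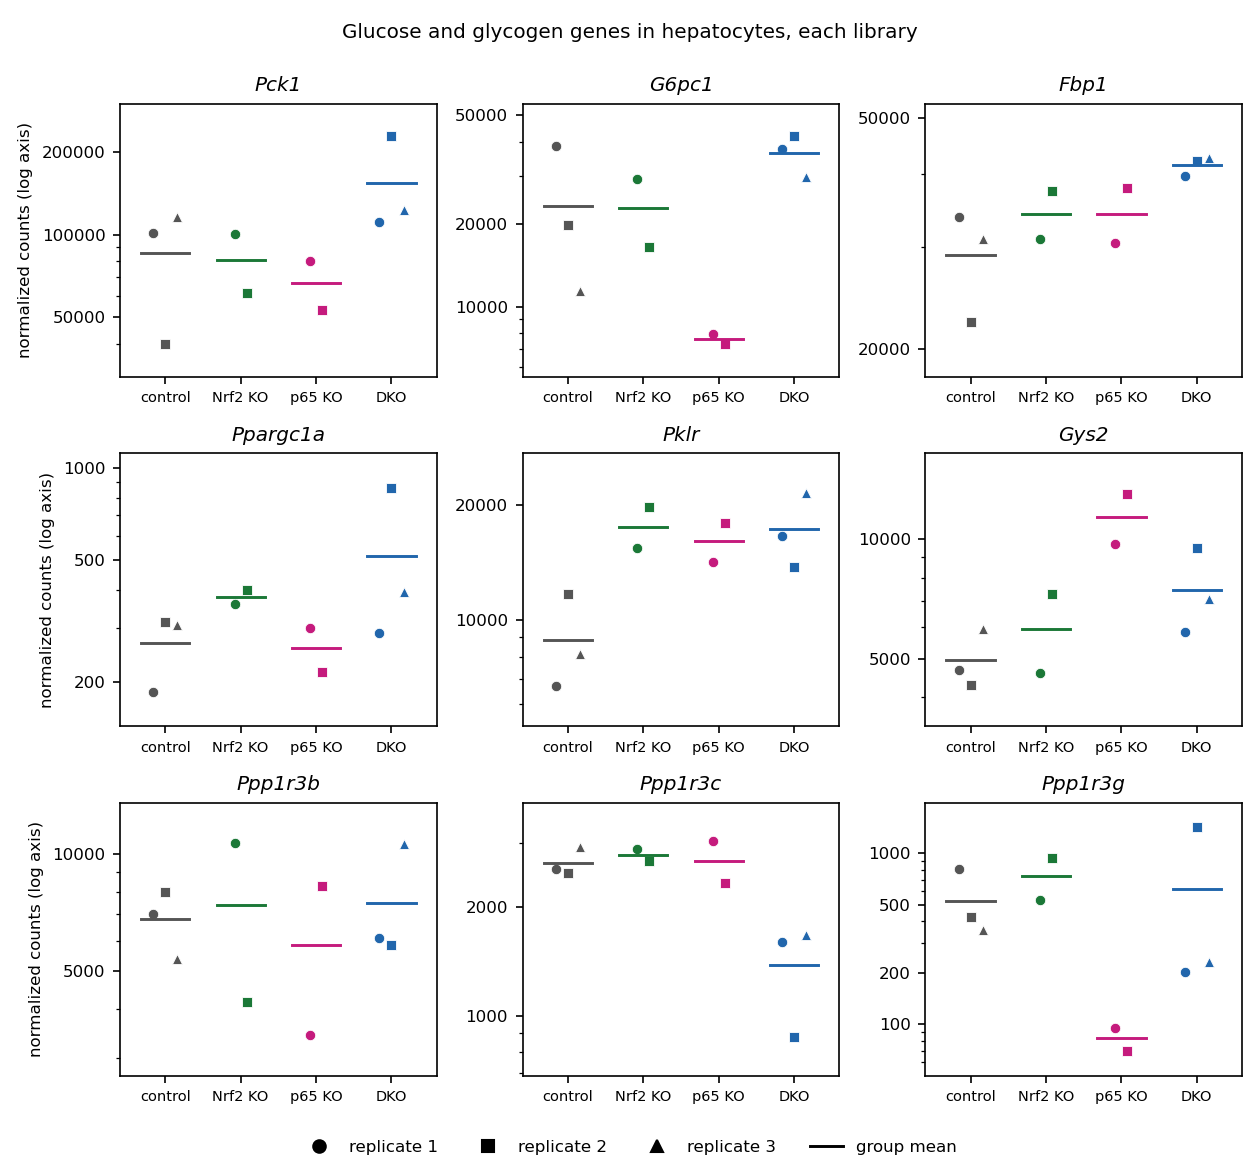
Normalized counts (log axis, a separate scale in each panel) of the 9 genes in each of the 10 libraries, by genotype. Symbols give the replicate number and lines the group means. The p65 KO libraries are the lowest for G6pc1 and Ppp1r3g and the highest for Gys2, the DKO libraries are the lowest for Ppp1r3c, and the controls are the lowest for Pklr.

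Genotypes were compared with edgeR's quasi-likelihood test, and a gene passed at a Benjamini-Hochberg adjusted p of at most 0.05 over all genes tested. In p65 KO against control, 3 of the 9 genes passed: G6pc1 fell, and Gys2 and Pklr rose. Of all genes, 14.9% passed in that comparison. In DKO against control 2 passed, Pklr upwards and Ppp1r3c downwards, against 5.45% of all genes. In Nrf2 KO against control 0 passed, against 0.726% of all genes. An unadjusted p under 0.05 was seen there for 1 of the 9 and for 9.38% of all genes. DESeq2 called 1 of the 9 and limma 0, and the shares of all genes under these tests are not given here. With the additional requirement of a 2-fold change, which the study used, 2 genes (G6pc1 and Gys2) passed in p65 KO, against 6.59% of all genes, and 0 in DKO, against 2.38%. The libraries of both groups did not overlap for 2 of the 9 genes in Nrf2 KO against control, 4 in p65 KO and 3 in DKO, where 28.5%, 50% and 26.5% of all genes did not overlap.

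The 7 hepatocyte markers summed to 3781255 to 4097842 normalized counts in p65 KO and 4126455 to 4145628 in DKO, inside the control range of 3371288 to 4720347, and to 4600765 to 5377486 in Nrf2 KO. Alb made up most of each sum. Of the single markers, Cps1 rose by 0.56 log2 units in p65 KO (adjusted p = 0.0479) and by 0.72 in DKO (adjusted p = 0.0248). No other passed against control. In DKO against p65 KO, 1 of the 7 passed downwards with at least a 2-fold change, where 1.78% of all genes passed with such a change. Markers of Kupffer, endothelial and stellate cells were higher in the p65 KO libraries in which G6pc1 fell and Gys2 and Pklr rose, with values given beside the glycolysis genes, and their part in these results was not tested. The 4 erythroid markers (Hba-a1, Hbb-bs, Hbb-bt and Alas2) summed to 4715 to 5396 in DKO, above the 3324 to 4669 of the controls, the 3635 to 3749 of Nrf2 KO and the 3119 to 3513 of p65 KO. Alas2 made up most of each sum, and Hbb-bs had 452, 162 and 91.5 in DKO against 24.3 to 71.9 in the controls. All 4 were higher in every DKO library than in p65 KO, and none passed in any comparison (lowest adjusted p against p65 KO 0.0560, for Hbb-bs). Their part in the DKO results of G6pc1, Pklr and Ppp1r3c was not tested.

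The question of what a second deletion adds was addressed by comparing DKO with each single knockout. Against p65 KO, 2 of the 9 genes passed in DKO, G6pc1 upwards and Ppp1r3c downwards, where 4.11% of all genes did. With a 2-fold change only G6pc1 passed, where 1.78% of all genes did. Against Nrf2 KO, 0 passed by edgeR, where 0.513% of all genes did. An unadjusted p under 0.05 was seen for 1 of the 9 and for 14.4% of all genes. DESeq2 called 1 of the 9 and limma 0, again without shares of all genes. Libraries did not overlap for 6 genes against p65 KO and 4 against Nrf2 KO, where 38.6% and 32.2% of all genes did not overlap. The interaction asks whether losing p65 had another effect in Nrf2-deficient than in Nrf2-intact hepatocytes. None of the 9 genes passed by edgeR, DESeq2 or limma, where 0.469% of all genes passed by edgeR. An unadjusted p under 0.05 was seen for 5 of the 9 genes and for 13.8% of all genes.

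**Figure D2:**
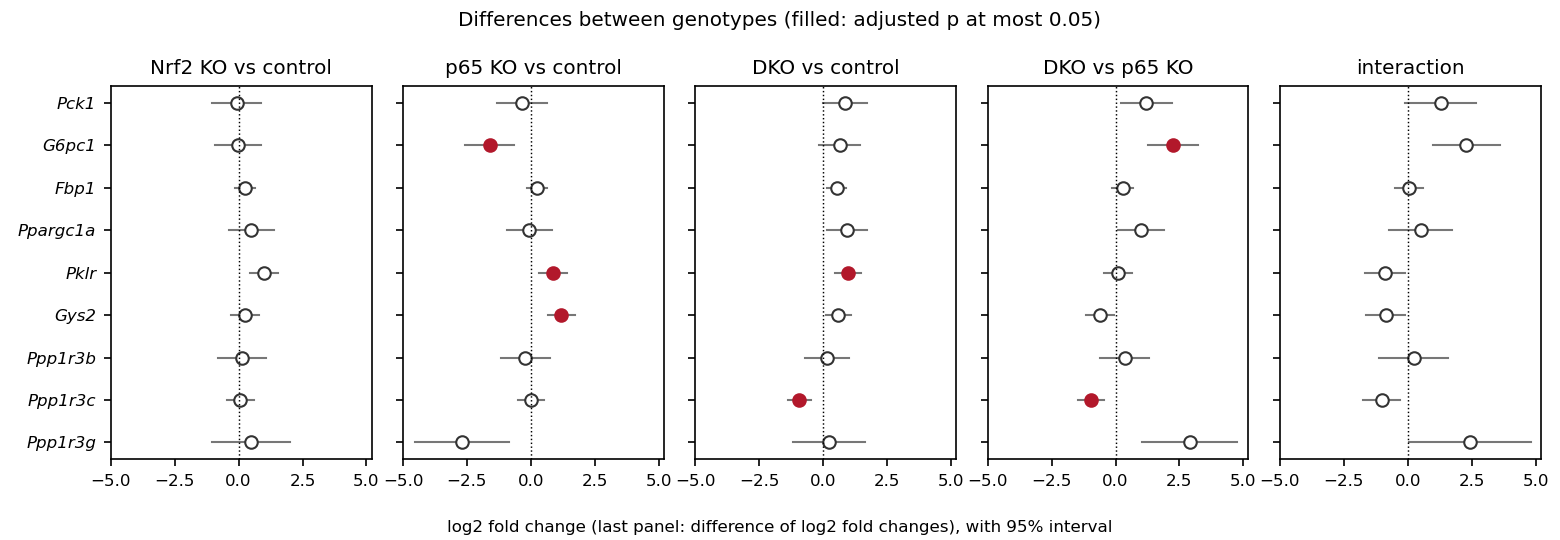
Log2 fold changes of the 9 genes, with 95% intervals, in 4 comparisons, and the interaction as a difference of log2 fold changes (last panel). Filled points passed at an adjusted p of at most 0.05. Filled points are seen for G6pc1, Pklr and Gys2 in p65 KO, for Pklr and Ppp1r3c in DKO, and for G6pc1 and Ppp1r3c in DKO against p65 KO.

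G6pc1 encodes the catalytic subunit of glucose-6-phosphatase, which releases free glucose at the end of gluconeogenesis and of glycogen breakdown. It lies on chr11:101258369-101268729 (GRCm39, plus strand). The controls had 38693, 19935 and 11361 normalized counts, a wide spread. The p65 KO libraries had 7968 and 7281, below every control. Nrf2 KO had 29214 and 16490, inside the control range, and DKO had 37562, 42099 and 29690. In p65 KO the level fell by 1.61 on the log2 scale (SE 0.43, adjusted p = 0.0316), and in bulk RNA fewer expressing cells and less mRNA per cell cannot be told apart. DKO exceeded p65 KO by 2.26 log2 units (SE 0.44, adjusted p = 0.0233), and the ranges of both groups did not overlap. Against control, the DKO difference of 0.64 did not pass (95% interval -0.16 to 1.45, adjusted p = 0.322). It was 1.22 without control replicate 1 (adjusted p = 0.0746) and 0.31 without control replicate 3 (0.610). The interaction of 2.29 (SE 0.60) did not pass either (adjusted p = 0.139). The call in p65 KO was lost without control replicate 1 (-1.04, adjusted p = 0.0752), without control replicate 2 (adjusted p = 0.0509) and without p65 KO replicate 1 (0.162) or 2 (0.134). With all libraries kept it was lost when they were scaled to equal totals (-1.43, adjusted p = 0.0505). The call in DKO against p65 KO was lost without p65 KO replicate 1 (0.127) or 2 (0.133) and without DKO replicate 1 (0.0638).

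Pck1 encodes the cytosolic phosphoenolpyruvate carboxykinase, which commits oxaloacetate to gluconeogenesis (chr2:172994744-173001066, plus strand). The controls had 101662, 39929 and 115537 normalized counts. Nrf2 KO had 100894 and 61368, p65 KO 80349 and 53021, and DKO 111489, 229011 and 122782. DKO replicate 2 stood above all other libraries, and the groups of both single knockouts lay inside the control range. DKO exceeded control by 0.85 log2 units (95% interval -0.02 to 1.72, adjusted p = 0.231), which did not pass. Without DKO replicate 2 that difference was 0.45 (adjusted p = 0.545), and without control replicate 2 it was 0.51 (0.422).

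Fbp1 encodes fructose-1,6-bisphosphatase, which opposes phosphofructokinase (chr13:63012567-63036263, minus strand). It varied the least of the gluconeogenic members. The controls had 33846, 22233 and 30907 normalized counts, Nrf2 KO 30929 and 37413, p65 KO 30520 and 37835, and DKO 39809, 42193 and 42755. Every DKO library lay above every other library. The difference from control was 0.52 log2 units (SE 0.16, adjusted p = 0.0904) and did not pass by edgeR, whereas DESeq2 gave an adjusted p of 0.0220.

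Ppargc1a encodes PGC-1α, a coactivator that raises transcription of gluconeogenic genes in fasting (chr5:51611592-51725068, minus strand). The controls had 186, 313 and 305 normalized counts, and Nrf2 KO had 360 and 399, above all controls. The p65 KO libraries had 301 and 215, and DKO had 288, 863 and 394. DKO replicate 2 again stood apart. None of the comparisons passed: the difference was 0.50 in Nrf2 KO (95% interval -0.36 to 1.37), -0.06 in p65 KO (-0.94 to 0.83) and 0.94 in DKO (0.15 to 1.72). Without DKO replicate 2 the last was 0.34 (adjusted p = 0.464), and without control replicate 1 the first was 0.30 (0.948).

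Other genes of gluconeogenesis were read from a list of 15, of which 14 were tested. In p65 KO 2 rose and 0 fell, and in DKO 3 rose and 0 fell, with list medians of -0.02 and -0.06 log2 units beside medians of 0.0009 and 0.02 over all genes, of which 14.9% and 5.45% passed. None passed in Nrf2 KO by edgeR, and 1 had an unadjusted p under 0.05, as did 9.38% of all genes. Slc37a4 encodes the transporter that brings glucose-6-phosphate to glucose-6-phosphatase. It had 3768, 3233 and 5068 normalized counts in the controls and 8875 and 9349 in p65 KO, where G6pc1 was at its lowest. Slc37a4 rose by 1.18 log2 units (SE 0.16, adjusted p = 0.00212) in p65 KO and by 0.81 (SE 0.15, adjusted p = 0.0126) in DKO. The alanine aminotransferase gene Gpt2, whose enzyme feeds alanine into pyruvate, rose by 0.91 in p65 KO (adjusted p = 0.00624) and by 0.74 in DKO (adjusted p = 0.0187). Its relative Gpt passed in DKO alone, at 0.44 (adjusted p = 0.0399), and had 0.24 in p65 KO (adjusted p = 0.200).

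Pklr encodes the liver pyruvate kinase, the last enzyme of glycolysis (chr3:89043449-89054619, plus strand). The controls had 6684, 11690 and 8125 normalized counts. Nrf2 KO had 15438 and 19771, p65 KO 14196 and 17997, and DKO 16612, 13762 and 21585. Every library of the 3 knockout groups lay above every control. The rise passed in p65 KO (0.87 log2 units, SE 0.24, adjusted p = 0.0385) and in DKO (0.97, SE 0.22, adjusted p = 0.0315). In Nrf2 KO the difference of 0.99 (SE 0.24) had an adjusted p of 0.128 by edgeR and 0.00429 by DESeq2. DKO differed from Nrf2 KO by -0.02 (95% interval -0.57 to 0.52) and from p65 KO by 0.11 (-0.44 to 0.65), so the knockout groups could not be ordered. The interaction of -0.89 (95% interval -1.66 to -0.12) did not pass (adjusted p = 0.304). The call in p65 KO was lost without control replicate 1 (adjusted p = 0.115) or 3 (0.0923) and without p65 KO replicate 1 (0.0989) or 2 (0.185). The call in DKO was lost without control replicate 1 (0.117) or 3 (0.0863) and without DKO replicate 1 (0.0627) or 3 (0.0745). It was also lost when only DKO and control libraries were fitted (0.0594).

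Other glycolysis genes were read from a list of 31, of which 29 were tested. In p65 KO 7 rose and 2 fell, in DKO 3 rose and 1 fell, and in Nrf2 KO 1 rose and 1 fell, where 14.9%, 5.45% and 0.726% of all genes passed. The list medians were 0.31, 0.32 and -0.02 log2 units, beside medians of 0.0009, 0.02 and 0.0018 over all genes. Pfkfb3 and Pfkfb2 encode the enzymes that set fructose-2,6-bisphosphate, an activator of glycolysis. Pfkfb3 had 170, 227 and 168 normalized counts in the controls, 615 and 974 in p65 KO, and 417, 754 and 1393 in DKO. It rose by 2.07 log2 units in p65 KO (adjusted p = 0.00854) and by 2.18 in DKO (adjusted p = 0.00965). Pfkfb2 rose by 1.41 (adjusted p = 0.00466) and by 0.83 (adjusted p = 0.0486), the latter at the edge of the threshold. Slc2a2, the glucose transporter GLUT2 of hepatocytes, rose 2.14-fold in p65 KO (adjusted p = 0.00471) and 1.75-fold in DKO (adjusted p = 0.0211). Slc2a1, the transporter GLUT1, fell by 1.15 in DKO (adjusted p = 0.00791). It had 287, 400 and 308 normalized counts in the controls, 342 and 275 in p65 KO, and 118, 165 and 166 in DKO. The Nrf2 KO libraries had 191 and 176, also below every control, and their difference of -0.86 did not pass (adjusted p = 0.128).

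Some glycolysis genes that passed in p65 KO are isozymes of cells other than hepatocytes. Pkm, the muscle-type pyruvate kinase of non-parenchymal cells, rose by 2.48 log2 units (adjusted p = 0.00478). Its levels were low, at 25.4, 40.3 and 45.8 normalized counts in the controls and 264 and 153 in p65 KO. Hk2 and Hk3, hexokinases of other cell types, were also among the 7 that rose. Further isozymes in the list that are not the liver type did not move alike. Hk1, Pfkp, Ldhb, Aldoa and Aldoc lay above every control in both p65 KO libraries. Hk1 and Pfkp had low counts, at most 17.7 and 14.9 in the controls. Aldoa had 3295, 2984 and 3050 in the controls and 4127 and 4382 in p65 KO. Aldoc had 582, 653 and 713 in the controls and 792 and 763 in p65 KO. Pfkm lay below every control, with 562 and 535 normalized counts against 722, 726 and 700, and Eno3 overlapped the controls. In the same libraries all 10 Kupffer cell markers rose, and their summed level was 297 to 796 in the controls, 214 to 650 in Nrf2 KO, 3600 to 5014 in p65 KO and 1324 to 2385 in DKO. None of these 10 markers was at 0 in any group. All 5 sinusoidal endothelial markers rose in p65 KO, where they summed to 2103 to 2939, against 441 to 968 in the controls, 559 to 1148 in Nrf2 KO and 1045 to 1472 in DKO. Of 5 stellate cell markers 4 rose in p65 KO, with sums of 1399 to 1412, against 129 to 321 in the controls, where Col1a1 was at 0, 129 to 198 in Nrf2 KO and 244 to 631 in DKO. Markers of T and NK cells, B cells and neutrophils summed to at most 50.8 per list in any library. Their part in these results was not tested. Tpi1, triosephosphate isomerase, fell by 0.50 in p65 KO (adjusted p = 0.0240).

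Eno1 and Eno1b were the 2 glycolysis genes that passed in Nrf2 KO. Eno1 encodes the enolase of hepatocytes, and Eno1b is a near-identical copy, so that reads can be split between them. Eno1 had 16354, 14692 and 14164 normalized counts in the controls and 6399 and 6870 in Nrf2 KO. Eno1b had 65.2, 16.7 and 54.2 in the controls and 8624 and 9629 in Nrf2 KO. The sum of both was 15115 ± 1155 in control (SD, n = 3) and 15761 ± 1043 in Nrf2 KO (SD, n = 2), so the sum differed by less than the spread between libraries. Their separate changes are uncertain.

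Gys2 encodes the liver glycogen synthase (chr6:142368339-142418841, minus strand). The controls had 4690, 4290 and 5923 normalized counts, and Nrf2 KO had 4595 and 7271. The p65 KO libraries had 9737 and 12972, above all other libraries, and DKO had 5842, 9496 and 7053. Gys2 rose by 1.19 log2 units in p65 KO (SE 0.24, adjusted p = 0.0113). This call was lost without p65 KO replicate 2 (0.97, adjusted p = 0.0685) and held without each of the other 9 libraries. In DKO the difference from control was 0.59 (95% interval 0.10 to 1.07, adjusted p = 0.149), and from p65 KO it was -0.61 (95% interval -1.14 to -0.07, adjusted p = 0.175). The former was 0.38 without DKO replicate 2, and the latter was -0.38 without p65 KO replicate 2. With libraries scaled to equal totals the latter passed (-0.87, adjusted p = 0.0381). That scaling moved the median of all genes by -0.27 in this comparison.

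Of the subunits that target the phosphatase to glycogen, Ppp1r3c passed in DKO. It encodes PTG, found in many tissues (chr19:36708523-36714070, minus strand). The controls had 2537, 2477 and 2912 normalized counts, Nrf2 KO 2889 and 2671, and p65 KO 3025 and 2318. DKO had 1598, 877 and 1676, below all other libraries. Ppp1r3c fell by 0.93 log2 units against control (SE 0.21, adjusted p = 0.0294). The differences of the single knockouts were 0.07 in Nrf2 KO (95% interval -0.44 to 0.58) and 0.02 in p65 KO (-0.50 to 0.53). DKO was lower than p65 KO by a log2 difference of -0.95 (SE 0.23, adjusted p = 0.0460). Against Nrf2 KO the difference of -1.01 (SE 0.23) had an adjusted p of 0.0975 by edgeR, 0.0386 without a filter on low counts and 0.00370 by DESeq2. The interaction of -1.02 (SE 0.33) had an unadjusted p of 0.00959 and an adjusted p of 0.219. The call against control was lost without control replicate 1, 2 or 3 (adjusted p = 0.0818, 0.0687 and 0.0794), and when only DKO and control were fitted (0.0598). The call against p65 KO held without DKO replicate 2 or 3. The other 8 omissions gave adjusted p from 0.0604 without control replicate 3 to 0.255 without p65 KO replicate 1. It was also lost with upper-quartile scaling (0.0526) and when only DKO and p65 KO were fitted (0.143).

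Ppp1r3g encodes a subunit of liver that is induced by fasting (chr13:36142822-36154371, plus strand), and it had the largest fitted differences of the 9 genes. The controls had 806, 426 and 359 normalized counts, and Nrf2 KO had 536 and 945. The p65 KO libraries had 95.5 and 69.9, below all other libraries. DKO had 203, 1422 and 231. DKO replicate 2 was therefore the highest of all libraries, while the other 2 DKO libraries lay between p65 KO and control. The difference in p65 KO was -2.68 log2 units (SE 0.83, adjusted p = 0.0536), which did not pass. It passed by DESeq2 (0.0213), by limma (0.0318), with no filter on low counts (0.0281), and when only p65 KO and control were fitted (0.00461). It also passed without DKO replicate 1 (0.0364), 2 (0.00316) or 3 (0.0391). Without control replicate 1, 2 or 3 it did not pass (0.139, 0.0801 and 0.0663). The difference was -2.92 without p65 KO replicate 1 and -2.47 without p65 KO replicate 2. In DKO the difference from control was 0.22 (95% interval -1.18 to 1.63), and without DKO replicate 2 it was -1.29 (adjusted p = 0.0810), the opposite direction. In Nrf2 KO it was 0.49 (95% interval -1.06 to 2.03), and from 0.018 without Nrf2 KO replicate 2 to 0.92 without control replicate 1. The study assigns Ppp1r3g to a cluster of genes raised in Nrf2 KO and DKO, and reads this as repression by Nrf2. By edgeR, neither difference from control passed here (adjusted p = 0.902 in Nrf2 KO and 0.865 in DKO). DKO exceeded p65 KO by 2.90 (SE 0.84, adjusted p = 0.0781), and by 1.39 without DKO replicate 2. That difference passed by DESeq2 (0.0197) and with no filter on low counts (0.0400).

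Ppp1r3b encodes the targeting subunit GL of liver (chr8:35842874-35856680, plus strand). The controls had 7027, 7995 and 5395 normalized counts, Nrf2 KO 10649 and 4183, p65 KO 3436 and 8249, and DKO 6078, 5839 and 10589. The groups overlapped throughout, and the libraries of one genotype differed by more than the genotypes did. The differences from control were 0.12 in Nrf2 KO (95% interval -0.82 to 1.07), -0.22 in p65 KO (-1.17 to 0.73) and 0.14 in DKO (-0.71 to 0.99). These intervals include changes of 1 log2 unit or nearly so.

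Other glycogen genes were read from a list of 27, of which 25 were tested. In p65 KO 0 rose and 1 fell, where 14.9% of all genes passed, and the list medians were 0.06 log2 units in p65 KO and 0.03 in DKO. By edgeR none passed in Nrf2 KO or DKO. An unadjusted p under 0.05 was seen for 1 and 2 of them, and for 9.38% and 22.5% of all genes. Ppp1ca, a catalytic subunit of protein phosphatase 1, fell by 0.49 in p65 KO (adjusted p = 0.0191).

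Regulators and hormone-responsive genes of glucose metabolism formed a list of 26, all tested. In p65 KO 6 rose and 2 fell, and in DKO 3 rose and 1 fell, with medians of 0.12 and -0.07 log2 units, where 14.9% and 5.45% of all genes passed with medians of 0.0009 and 0.02. None passed in Nrf2 KO by edgeR, and 4 had an unadjusted p under 0.05, as did 9.38% of all genes. Pdk4, the kinase that shuts off pyruvate dehydrogenase, had 665, 494 and 383 normalized counts in the controls, 21.3 and 35.0 in p65 KO, and 47.3, 88.6 and 51.5 in DKO. It fell by 4.18 log2 units in p65 KO (SE 0.59, adjusted p = 0.00232) and by 3.04 in DKO (SE 0.46, adjusted p = 0.00523). The Nrf2 KO difference of -1.55 did not pass (adjusted p = 0.274), although both libraries lay below every control. Igfbp1, an insulin-repressed secreted protein, fell by 2.32 in p65 KO (adjusted p = 0.0300). Srebf1, whose product drives lipogenic genes under insulin, rose by 1.08 in p65 KO (adjusted p = 0.0210) and by 1.39 in DKO (adjusted p = 0.0103). In Nrf2 KO it had 8791 and 11505 normalized counts, above the 4195 to 5902 of the controls, and the difference of 1.09 did not pass (adjusted p = 0.115). Ppargc1b, the relative of Ppargc1a, rose by 1.11 (adjusted p = 0.0482) and 1.21 (adjusted p = 0.0462).

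Tat and Txnip differed between p65 KO and DKO. Tat, the tyrosine aminotransferase induced by glucocorticoids, had 39385, 25764 and 31131 normalized counts in the controls, 30931 and 22510 in p65 KO, and 69715, 124748 and 101867 in DKO. The Nrf2 KO libraries had 72410 and 43003, also above every control, and their difference of 0.85 did not pass (adjusted p = 0.325). It rose by 1.62 log2 units in DKO against control (adjusted p = 0.00766) and by 1.89 against p65 KO (adjusted p = 0.0117). Txnip, a glucose-induced protein that limits glucose uptake, had 10335, 6409 and 7190 in the controls, 18524 and 14110 in p65 KO, and 3133, 6223 and 3665 in DKO. It rose by 1.03 in p65 KO (adjusted p = 0.0385). DKO was lower than p65 KO by a log2 difference of -1.91 (adjusted p = 0.00928), and the difference of DKO from control, -0.88, did not pass (adjusted p = 0.0847).

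Leaving out single libraries tested how firmly the 26 differences of these other pathway genes held, but not how reads split between Eno1 and Eno1b. A call was kept without every library for 8 of them: Slc37a4, Gpt2, Slc2a2 and Pdk4 in p65 KO, Pdk4, Slc2a1 and Tat in DKO, and Eno1b in Nrf2 KO. In p65 KO, leaving out p65 KO replicate 1 ended the calls of Pfkfb2 (adjusted p = 0.0525) and Pkm (0.0556), and leaving out p65 KO replicate 2 that of Pfkfb3 (0.0513). In DKO, leaving out control replicate 1 ended the calls of Slc37a4 (0.0623), Pfkfb3 (0.0509) and Srebf1 (0.0544). Control replicate 1 and control replicate 2 each carried the DKO calls of Gpt2 and Slc2a2, the latter also DKO replicate 2, with adjusted p of up to 0.0799 and 0.0873 without them. In p65 KO, the calls of Ppp1ca (without control replicate 1 or p65 KO replicate 1), Tpi1 (the same and p65 KO replicate 2) and Igfbp1 (without control replicate 1 or 2 or p65 KO replicate 2) were lost, with adjusted p of up to 0.140, 0.169 and 0.141. Those of Srebf1 (control replicate 1 or 3) and Txnip (control replicate 2 or 3) were lost, also without either p65 KO library, with up to 0.106 and 0.242. Eno1 in Nrf2 KO was lost without either Nrf2 KO library (up to 0.111). The weakest were Gpt and Pfkfb2 in DKO, kept without control replicate 3 or DKO replicate 3 for Gpt and without DKO replicate 1 for Pfkfb2, and Ppargc1b, lost without 6 libraries in each comparison (up to 0.363 in p65 KO and 0.161 in DKO).

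**Figure D3:**
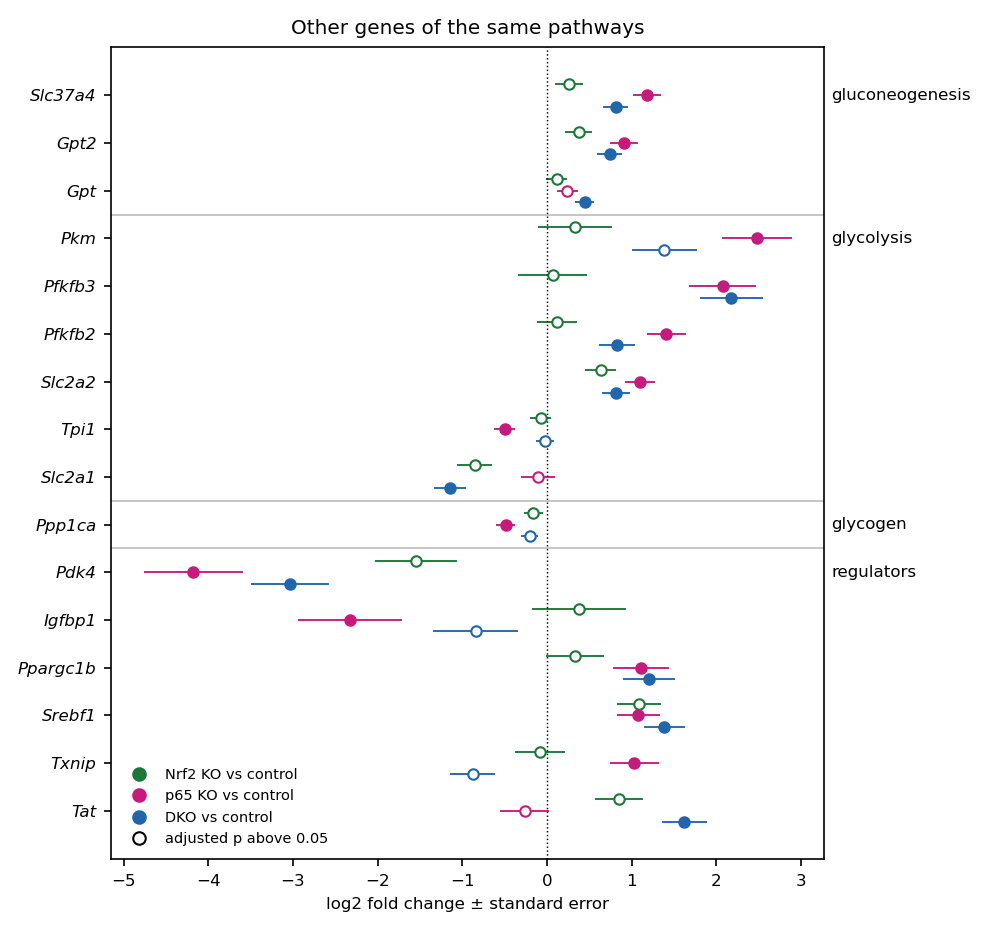
Log2 fold change against control, with the standard error, of the other pathway genes named in the text except Eno1 and Eno1b, in 3 knockout groups. Filled points passed at an adjusted p of at most 0.05. Slc37a4, Gpt2, Pfkfb3, Pfkfb2, Slc2a2, Srebf1 and Ppargc1b are filled to the right and Pdk4 to the left in both p65 KO and DKO.

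Clock genes were read from a list of 5 that holds Bmal1 and a list of 9 that holds Per2, all tested. In p65 KO 4 of the 5 fell and 8 of the 9 rose, and in DKO 3 fell and 5 rose, where 14.9% and 5.45% of all genes passed. Bmal1, which encodes a core clock activator, had 758, 1130 and 498 normalized counts in the controls, 30.5 and 21.7 in p65 KO, and 270, 132 and 130 in DKO. It fell by 4.93 log2 units in p65 KO (adjusted p = 0.000914) and by 2.16 in DKO (adjusted p = 0.0121). Per2, a clock repressor, rose by 2.99 (adjusted p = 0.000636) and by 2.18 (adjusted p = 0.00171). Dbp, a clock output factor, had 45.3, 54.1 and 426 in the controls and 3627 and 3589 in p65 KO, and rose by 4.35 (adjusted p = 0.0213). In DKO its difference was 3.32 (adjusted p = 0.0747). Nr1d1 had 0.34 in p65 KO (adjusted p = 0.647) and 0.68 in DKO (adjusted p = 0.348). The study states that injection and sacrifice took place in the morning for every mouse, with free access to food. It reports altered Arntl (Bmal1) and Per2 in p65 KO all the same. The part of the clock genes in the results on glucose genes was not tested.

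The genes nearest in pattern were found for the 4 members that passed against control, by the root mean square difference of log2 levels relative to the control mean over the 10 libraries. Among the 10184 other genes averaging 50 or more normalized counts, Arl4d (0.34 log2 units), Serpina1e (0.45) and Ppp1r10 (0.45) were nearest to G6pc1. Acaca (0.20), Fnip2 (0.23) and Srebf1 (0.25) were nearest to Pklr. Nr1d2 (0.17), St3gal4 (0.17) and Ung (0.19) were nearest to Gys2. Rhob (0.21), Id2 (0.27) and Fzd6 (0.27) were nearest to Ppp1r3c. The median distance over all these genes lay between 0.64 for Ppp1r3c and 0.93 for G6pc1. The libraries share depth and isolation, and the distances are descriptions without a test.

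**Figure D4:**
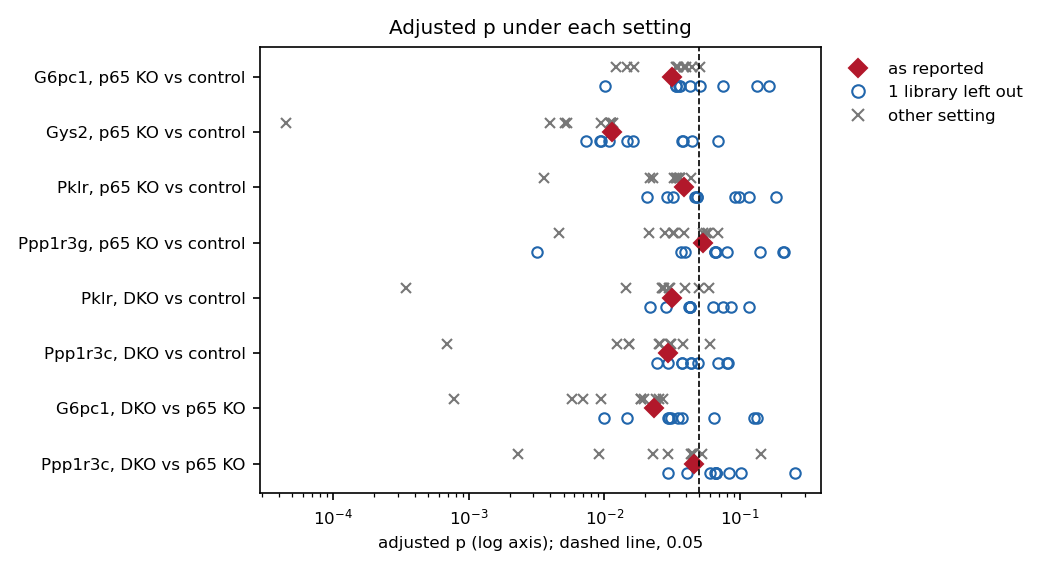
Adjusted p (log axis) of 8 differences under the settings tried. Diamonds give the values as reported, circles the fits with 1 library left out, and crosses the other settings. The dashed line is 0.05. Each of the 8 differences has circles on both sides of the line, and Gys2 in p65 KO has a single circle above it.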

How the data were processed

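Poly-A RNA of hepatocytes was sequenced with single-end reads, and the authors quantified it with Salmon 1.10.3 (per the study's methods, GRCm39 and GENCODE M33). The deposited values are estimated counts per gene. The table's name calls them normalized, but they are whole numbers whose totals differ between libraries, and they were treated as not normalized. If they had been normalized, the fits would start from altered counts. In addition, the step from transcripts to genes is not given in the sources used here. Identifiers were named from GENCODE M39, which matched 21926 of 21939. Genes with fewer than 10 counts over all libraries were left out. Libraries were scaled by TMM, and 1 edgeR 4.0.16 quasi-likelihood model of the 4 genotypes was fitted in R 4.3.3, with adjustment over all genes. Normalized counts are counts divided by relative effective library size. The script was tested on simulated data. DESeq2 1.42.0, limma 3.58.1 on log2 values with a pseudocount of 1 or 0.5, other scalings and filters, a replicate block, fits of single pairs of genotypes and fits without each library were alternatives.

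The members and lists were chosen with earlier results of these data known, and 1 gene of the lists is not reported here. Besides the 9 members, the targeted genes, Bmal1, Per2, Dbp and Nr1d1, the text names per list up to 5 genes with the largest change among those that passed against control and averaged 50 or more normalized counts, and the 3 nearest patterns of each member that passed against control. Hk1, Hk2, Hk3, Pfkp, Pfkm, Eno3, Ldhb, Aldoa and Aldoc fell outside this rule and were chosen after their values were seen. The samples are separate mice. Totals were 33707165 to 49897382 counts per library. Where 1 library of a group of 2 was left out, the lone library was assumed to vary like the other groups.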

Additional observations from a re-analysis of the deposited data

Results flagged for a closer look

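The interaction in edgeR passed for 2 of the named glycolysis genes. For Eno1b the difference of log2 fold changes was -7.25 (adjusted p = 0.00287), and for Eno1 it was 1.52 (adjusted p = 0.0197). Eno1b had 8624 and 9629 normalized counts in Nrf2 KO and at most 65.2 in every other library. Both genes are near-identical in sequence, so that reads can be split between them, and their separate interactions are uncertain. Their sum in DKO was 18872 ± 2371 (SD, n = 3) against 15761 ± 1043 (SD, n = 2) in Nrf2 KO.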

How the results depend on the processing

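Of the 54 differences of the 9 members, 19 changed sign under some setting, 11 of them with all libraries kept. None of these 19 had passed the test, and the largest was 0.50 log2 units. The replicate numbers showed no sign of pairing. Deviations of same-numbered samples of different groups correlated between -0.23 and 0.11, and those of differently numbered samples between -0.17 and 0.23. In groups of 2 mice both deviations mirror each other, as for control replicate 1 with Nrf2 KO replicate 1 (-0.16) and 2 (0.16). The check thus rests on few separate values and cannot exclude a shared batch. With a replicate block, the count of members past the test in the interaction went from 0 to 1, since G6pc1 passed (2.77, adjusted p = 0.0413), and Ppp1r3g passed in p65 KO (-3.09, adjusted p = 0.0384). The block gave 0.0038 for Ppargc1a in p65 KO, and -0.022 in Nrf2 KO and -0.16 in DKO for Ppp1r3g. DESeq2 gave 1 member in Nrf2 KO and 1 in DKO against Nrf2 KO, where the count without a filter was also 1. Fits of single pairs of genotypes gave 0 members in DKO and 1 in DKO against p65 KO, where upper-quartile scaling also gave 1. For the other pathway genes, DESeq2 gave 8 in Nrf2 KO and 19 in DKO, no filter or pairs alone gave 4 in Nrf2 KO, and the replicate block gave 13 in p65 KO. Scaling to equal totals moved the median of all genes by 0.18 in p65 KO and by -0.27 in the interaction, and gave 0.11 for Ppargc1a in p65 KO and -0.17 for Pklr in DKO against p65 KO. Upper-quartile scaling gave 0.0058 for Pklr in DKO against Nrf2 KO. With limma, Ppp1r3b in Nrf2 KO was -0.0093 with either pseudocount, and Ppp1r3g in DKO was -0.29. The causes were not tested. Shares of all genes are not given for these settings or for the fits without single libraries. The counts therefore show how the calls moved and are no result about the lists.

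With each library left out in turn, 0 to 4 members passed in p65 KO, 0 to 2 in DKO and 0 to 2 in DKO against p65 KO. The other pathway genes past the test numbered 1 to 4 in Nrf2 KO (2 with all libraries, 1 without either Nrf2 KO library and 4 without DKO replicate 3), 6 to 20 in p65 KO (20 with all libraries, 6 without p65 KO replicate 1, 13 without p65 KO replicate 2 and 10 without control replicate 1) and 3 to 12 in DKO (11 with all, 3 without control replicate 1 and 7 without control replicate 2). The range was -0.32 to 0.16 for Ppargc1a, -0.99 to 0.28 for Ppp1r3b and -0.19 to 0.20 for Ppp1r3c in p65 KO. It was -0.21 to 0.17 for Pklr in DKO against Nrf2 KO and -0.077 to 0.29 in DKO against p65 KO. It was -0.70 to 0.65 for Ppp1r3b in Nrf2 KO and -0.19 to 0.29 in DKO, and -1.29 to 0.66 for Ppp1r3g in DKO. Each of the 7 calls of members was lost without at least 1 library.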
